A study of Drosophila melanogaster with 8 samples.

Results

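The 9 genes described here are grouped under the synthesis, sensing and breakdown of juvenile hormone in Drosophila melanogaster. They were found by their gene names in the deposited annotation table and joined by identifier to the raw counts, which gave 9 of 9 genes among the 14865 genes of the table. RNA came from whole adult flies, taken at day 8 of adulthood, whose food held 8% yeast with 9% sugar, and by its title the study asked about male fertility. The mutant group was 3 libraries of DHR39 animals, named DHR393.48 in the deposited sample sheet, and DHR39 (gene symbol Hr39) is a nuclear receptor. The comparison group was 5 control libraries, named w1118 in that sheet after a common white-eyed laboratory strain, and the titles of these controls mark them as re-used. Neither the lesion of the mutant allele, the sex of the flies nor the number of flies per library is stated in the labels. Separate cultures or animals for the replicates are not stated either, and p-values therefore reflect only the spread among these libraries, which may be technical.

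Juvenile hormone is a lipid-like hormone of insects made in the corpus allatum, a small gland behind the brain, from the same mevalonate precursors that vertebrates use for cholesterol. The methyltransferase jhamt acts at the end of its synthesis. The hormone enters cells and binds Met or gce, a pair of related transcription factors, which switch on Kr-h1, a zinc finger gene that serves as the early target. Esterases such as Jhe, and epoxide hydrolases of the Jheh family, open the hormone at its ester or its epoxide end and so inactivate it. In adult insects the hormone is known for its part in egg yolk production and, in males, for its action on the accessory gland and on mating.

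Of the 5 genes grouped by name under breakdown 4 were lower in DHR39 flies. The esterase gene Jhe, the synthesis gene, both receptors and the target gene did not pass the test. The 3 epoxide hydrolase genes Jheh1, Jheh2 and Jheh3 and the esterase gene Jhedup fell, with changes between -19.8% for Jhedup and -45.9% for Jheh3. In all, 4 of the 9 genes fell and 0 rose (edgeR quasi-likelihood test, Benjamini-Hochberg adjusted p under 0.05 over all tested genes, two-sided). The background is high in this comparison, since 17.3% of 13506 tested genes were called, 10.7% lower and 6.58% higher in DHR39. The median log2 fold change of the 9 genes was -0.32, against -0.0044 for all tested genes, and the 4 falls were 2 without DHR39 replicate 3. None of the 9 was higher at an unadjusted p under 0.05 in edgeR, and DESeq2 and limma voom also called 4 lower and 0 higher. All 9 genes passed the filter on low counts.

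The libraries were of similar depth, with totals from 16072497 to 19935574 counts, and levels are given below as CPM, counts scaled to library totals after trimmed mean (TMM) adjustment of those totals. The transcript of Hr39 was at 24.4, 26.5 and 30.1 CPM in the DHR39 libraries, against 39.9, 34.6, 33.8, 35.6 and 37.0 CPM in controls. Of the accessory gland markers 6 of 6 fell, with a summed level of 681.5 to 992.0 CPM in DHR39 libraries against 3660 to 7145 CPM in controls. A gene outside that list, Acp26Ab, which lies beside the listed Acp26Aa and is named after its values were seen, went the other way, with 370 CPM in DHR39 and 156 CPM in controls (log2 fold change 1.25 ± 0.10, edgeR adjusted p = 4.09e-06). Of the fat body markers, apolpp and Lsp2 fell (2 of 2 tested), summing to 2954 to 3560 CPM in DHR39 and 4303 to 6364 CPM in controls. The call of Lsp2 ended with limma voom and without any 1 of DHR39 replicates 1 to 3 or control replicates 1 and 2 (edgeR or voom adjusted p up to 0.294), whereas that of apolpp held. Control replicates 1 and 2, whose replicate names no DHR39 library shares, were at 313.3 and 248.6 CPM of Lsp2. The other controls were at 4.64 to 45.5 CPM. The log2 fold change of Lsp2 was -4.2, but -1.46 with replicate names as a block. For apolpp it was -0.71, and -0.54 with the block. The yolk protein genes Yp1, Yp2 and Yp3 summed to 8.87 to 14.3 CPM in DHR39 and 10.6 to 16.8 CPM in controls, and Akh, the marker of the gland that adjoins the corpus allatum, was at 7.16 to 9.33 CPM in DHR39 and 8.68 to 10.9 CPM in controls. No tested marker was at 0 in any library, and their part in the results below was not tested. In RNA of whole flies, fewer cells of a type and less RNA per cell cannot be told apart.

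**Figure D1:**
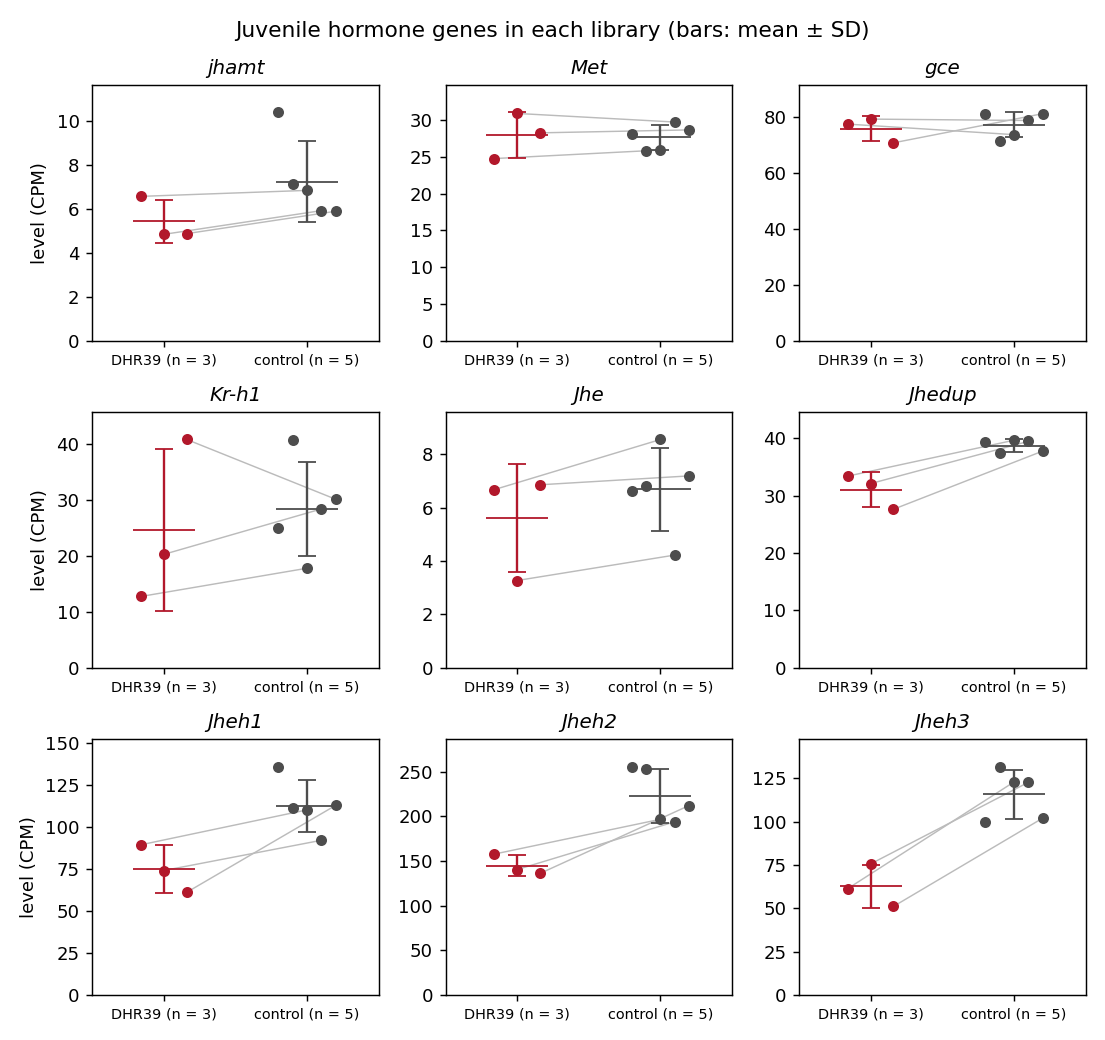
Level of each of the 9 genes in CPM (vertical axis, from 0) in 3 DHR39 and 5 control libraries. Points are libraries, bars are the mean ± SD, and grey lines join the 3 pairs of libraries that share a replicate name in the deposited sample sheet. All DHR39 libraries lie below all controls for Jhedup, Jheh1, Jheh2 and Jheh3, and the groups overlap for the other 5 genes.

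Synthesis came first in the order of the pathway. The gene jhamt (FBgn0028841) is on arm 2L from 16365903 to 16367039 on the plus strand of the BDGP6 assembly, 4.87 Mb from Hr39 on the same arm, and has 1073 exonic bases. Its level was 6.56, 4.83 and 4.87 CPM in DHR39 libraries, against 10.4, 7.11, 6.84, 5.91 and 5.89 CPM in controls. The highest DHR39 library lay above the lowest 2 controls, and control replicate 1 stood above the other 4. The log2 fold change of jhamt was -0.42 ± 0.21 (SE) and did not pass the test (edgeR adjusted p = 0.226). Without control replicate 1 it was -0.25, and with replicate names as a block -0.21, the lowest and highest of the 15 alternatives being -0.57 and -0.21. In all 3 pairs of libraries that share a replicate name in the sheet the DHR39 library was the lower one. These values rest on 83 to 114 counts per DHR39 library and 99 to 180 per control library, and the coefficient of variation of the level was 18.2% in DHR39 and 25.6% in controls.

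The receptor genes were at nearly equal levels in both groups. Met (FBgn0002723; X, 11616124 to 11621280, plus strand) was named for flies that tolerate the hormone analogue methoprene. It stood at 24.8, 30.9 and 28.3 CPM in DHR39 and at 28.0, 25.8, 25.9, 29.7 and 28.7 CPM in controls. DHR39 libraries lay on both sides of the control range, and the log2 fold change was 0.02 ± 0.10 (edgeR adjusted p = 0.936).

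The paralog gce (FBgn0261703; X, 15297766 to 15319074, plus strand) acts in part in place of Met. Its level was 77.6, 79.3 and 70.8 CPM in DHR39, against 81.1, 71.3, 73.8, 78.8 and 81.3 CPM in controls. The groups overlapped through nearly their whole range, and the log2 fold change was -0.03 ± 0.08 (edgeR adjusted p = 0.892). The sign is not settled for either receptor gene. With library totals alone, a scale that put the median of all genes at 0.14, gce was at 0.12, and with the replicate block Met was at -0.009. Antisense genes share 2364 of the 5809 exonic bases of gce, and the sources used here do not say whether strand was used in counting.

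The mean balance of the receptors was similar in both groups, but the DHR39 libraries spread more widely. Their log2 ratios of Met to gce were -1.647, -1.36 and -1.326, on both sides of the control range of -1.533 to -1.407. Within a library, the log2 ratio of Met to gce counts averaged -1.44 in the 3 DHR39 libraries (SD 0.177) and -1.48 in the 5 controls (SD 0.049). The difference of 0.039 was within the spread (two-sided exact permutation p = 0.643, and 0.964 adjusted over the 5 ratios compared, where 0.0179 is the smallest p that 8 libraries divided this way allow).

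Kr-h1 (FBgn0266450; 2L, 6082603 to 6096498, plus strand) is the early target through which the receptors act. It was the most variable of the 9 genes. In DHR39 libraries Kr-h1 was at 12.7, 20.2 and 40.8 CPM, and in controls at 25.0, 40.7, 17.8, 28.4 and 30.1 CPM. The lowest and, by a narrow margin, the highest of all 8 libraries were both DHR39 libraries, so the mutant range enclosed the control range. The coefficient of variation was 59.0% in DHR39 and 29.4% in controls.

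The log2 fold change of Kr-h1 was -0.21 ± 0.33 and did not pass the test (edgeR adjusted p = 0.749). Single libraries decided its size and sign: it was 0.10 without DHR39 replicate 1 and -0.78 without DHR39 replicate 3 (edgeR adjusted p = 0.887 and 0.111). In the 3 pairs of libraries that share a replicate name, the DHR39 library was lower by a log2 ratio of -0.48 and -0.49 in 2 pairs and higher by 0.44 in the pair of DHR39 replicate 3 and control replicate 5. Another gene, CG45075, covers 4168 of the 5306 exonic bases of Kr-h1 on the same strand in Ensembl release 115, so its counts are uncertain to that extent.

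The esterase genes were a tandem pair on 2R, and whether Jhedup acts on the hormone was not tested here. Jhe (FBgn0010052; 16119793 to 16122773, plus strand) encodes juvenile hormone esterase, and its duplicate Jhedup (FBgn0034076; 16117109 to 16119149, plus strand) lies 643 bases from it with no annotated gene between. Jhedup was at 33.4, 32.1 and 27.6 CPM in DHR39 libraries, against 39.4, 37.4, 39.6, 39.4 and 37.8 CPM in controls. The controls lay within a narrow band and every DHR39 library was below it, a pattern that 13.4% of tested genes shared. Jhedup fell by 0.32 ± 0.09 on the log2 scale (edgeR adjusted p = 0.0309).

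That call is a weak one. It ended without DHR39 replicate 2 (edgeR adjusted p = 0.0682), DHR39 replicate 3 (0.175), control replicate 1 (0.0639), control replicate 4 (0.0671) or control replicate 5 (0.0588), and with library totals alone (0.216) or totals lacking the 50 most abundant genes (0.136), in a range of 0.017 to 0.216. With totals alone its log2 fold change was -0.17, against the median of 0.14 for all genes on that scale.

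Jhe itself stood much lower, at 6.68, 3.27 and 6.86 CPM in DHR39, against 6.64, 6.83, 8.56, 4.22 and 7.19 CPM in controls. DHR39 replicate 2 was the lowest library and the other 2 lay among the controls. In the 3 pairs that share a replicate name, the DHR39 library was lower each time, with log2 ratios of -0.358, -0.369 and -0.068. The log2 fold change of Jhe was -0.26 ± 0.27 (edgeR adjusted p = 0.596), and 0.02 without DHR39 replicate 2. It rested on 69 to 144 counts per library. The log2 ratio of Jhedup to Jhe averaged 2.54 in the 3 DHR39 libraries (SD 0.67) and 2.57 in the 5 controls (SD 0.388), and the difference was within the spread (two-sided exact permutation p = 0.964, the same adjusted over 5 ratios).

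The epoxide hydrolases gave the largest changes of the 9 genes in these libraries. Jheh1 (FBgn0010053; 18853434 to 18855087), Jheh2 (FBgn0034405; 18855767 to 18858245) and Jheh3 (FBgn0034406; 18860375 to 18862078) stand in a row on the minus strand of 2R, with 679 and 2129 bases between neighbours. They encode microsomal epoxide hydrolases, enzymes that add water to an epoxide ring. Their summed level was 308.2, 289.9 and 248.1 CPM in DHR39 libraries, against 491.2, 496.0, 429.7, 408.5 and 426.9 CPM in controls. The highest DHR39 library was well below the lowest control.

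Jheh3 was at 61.3, 75.6 and 51.1 CPM in DHR39, against 99.9, 131.8, 122.9, 122.7 and 102.0 CPM in controls. A wide gap parted the groups. Jheh3 fell by 0.89 ± 0.14 on the log2 scale (edgeR adjusted p = 0.000822), the lowest fold change among the 9 genes, with 6.45% of all tested genes lower still. The call held under all 15 alternatives, with adjusted p from 2.29e-08 to 0.00551.

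Jheh2, the most abundant of the 9, was at 157.6, 140.3 and 136.0 CPM in DHR39, against 255.5, 253.1, 196.6, 193.8 and 212.0 CPM in controls. The controls formed a higher pair and a lower trio, all above the mutants. The pair was control replicates 1 and 2, whose replicate names no DHR39 library shares. The trio was control replicates 3 to 5, which each share a name with a DHR39 library. With the replicate block the log2 fold change was nearer 0, at -0.48 (edgeR adjusted p = 0.00418). Jheh2 fell by 0.62 ± 0.12 (edgeR adjusted p = 0.0030) and kept its call under all 15 alternatives, with adjusted p from 9.76e-06 to 0.0225.

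Jheh1 was at 89.3, 74.0 and 61.0 CPM in DHR39, against 135.8, 111.1, 110.1, 92.0 and 112.8 CPM in controls. Its groups came closest, with the highest DHR39 library just under control replicate 4. Jheh1 fell by 0.59 ± 0.14 (edgeR adjusted p = 0.0125). Leaving out DHR39 replicate 3 ended the call (log2 fold change -0.46, edgeR adjusted p = 0.0701), and p was between 0.000801 and 0.0701 over all alternatives.

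No test separated the sizes of the 3 falls, although Jheh3 had the lowest point estimate, with the replicate block as well (-0.90, against -0.48 for Jheh2 and -0.50 for Jheh1). The log2 ratio of Jheh3 to Jheh2 averaged -1.22 in the 3 DHR39 libraries (SD 0.287) and -0.938 in the 5 controls (SD 0.288), a difference of -0.285 (two-sided exact permutation p = 0.214, and 0.625 adjusted over the 5 ratios). For Jheh3 to Jheh1 the difference was -0.303 (exact permutation p = 0.250, and 0.625 adjusted), and for Jheh2 to Jheh1 it was -0.018 (exact permutation p = 0.804, and 0.964 adjusted). These p-values leave the pairing of libraries out of account. Within the 3 pairs that share a replicate name, the log2 ratio of Jheh3 to Jheh2 was lower in the DHR39 library each time, with differences of -0.684, -0.233 and -0.358, and so was that of Jheh3 to Jheh1, with -0.701, -0.384 and -0.112. For each of these ratios the two-sided exact permutation p over signs within pairs was 0.25, the smallest that 3 pairs allow, so this comparison cannot pass the threshold. In each of the pairs, all 3 hydrolases and Jhedup were lower in the DHR39 library. Any pairing would give this, as every DHR39 library lay below every control for these genes.

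Release 115 of the Ensembl annotation places an antisense gene, asRNA:CR46485, across the row, over 1486 of 1486 exonic bases of Jheh1, 1765 of 1926 of Jheh2 and 780 of 1576 of Jheh3. If strand was not used in counting, reads of the hydrolases and of this gene cannot be told apart, and related sequence among the 3 hydrolases may also have split reads between them. None of the 4 nearest tested genes beside the row fell by the test. On one side the log2 fold changes were 0.05 ± 0.14 for CG18190 and 0.19 ± 0.17 for CG15084 (edgeR adjusted p = 0.855 and 0.547). On the other, CG43069 was at 0.04 ± 0.14 (edgeR adjusted p = 0.891) and CG43070 rose by 0.91 ± 0.27 (0.0395) from a low level, 2.71 CPM in DHR39 and 1.44 CPM in controls. Beside the esterases, Asph, 112 bases from Jhedup, fell by 0.29 ± 0.08 (edgeR adjusted p = 0.0220), nearly as far as Jhedup, and spin on the other side was at -0.10 ± 0.11 (0.627).

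**Figure D2:**
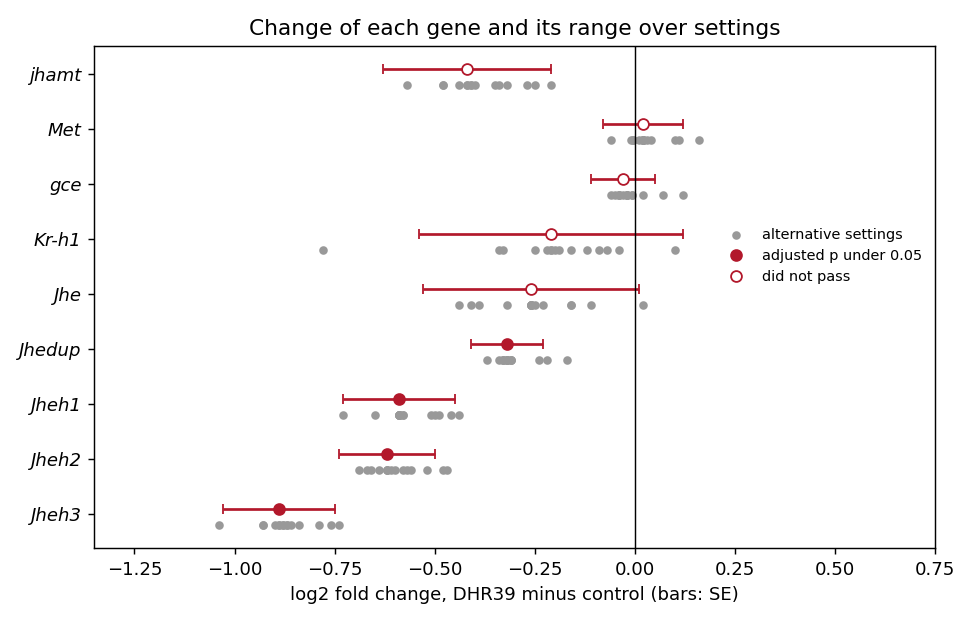
Log2 fold change of each gene, DHR39 minus control (horizontal axis). Red points are the values of the text with their SE, filled where the adjusted p was under 0.05, and grey points are the same gene under 15 alternative settings. The grey points of Jheh1, Jheh2, Jheh3, Jhedup and jhamt all lie left of 0, whereas those of Met, gce, Kr-h1 and Jhe lie on both sides.

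Levels of different genes can be compared only per length, so CPM were divided by kilobases of exon in release 115. On this scale Jheh2 led, at 75.1 ± 5.93 CPM per kilobase in DHR39 and 115 ± 15.6 in controls (mean ± SD of 3 and 5 libraries, here and below). Jheh1 followed at 50.3 ± 9.52 in DHR39 and 75.6 ± 10.5 in controls, and Jheh3 at 39.8 ± 7.81 and 73.5 ± 8.95 CPM per kilobase in the same order of groups. These 2 did not differ beyond their spread: Jheh1 was above Jheh3 in 3 of 3 DHR39 libraries but in only 2 of 5 controls, and their ranges overlapped in both groups.

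Jhedup, at 17.7 ± 1.72 CPM per kilobase in DHR39 and 22.0 ± 0.610 in controls, and gce, at 13.1 ± 0.772 in DHR39 and 13.3 ± 0.775 in controls, came next, each apart from its neighbours in every library. The lowest levels belonged to jhamt, Met, Kr-h1 and Jhe, with DHR39 means of 5.05, 5.50, 4.63 and 2.67 and control means of 6.74, 5.43, 5.35 and 3.18 CPM per kilobase. Neighbours among these 4 overlapped in both groups, so their order is not settled. The order of the means was the same in both groups except that Met stood above jhamt in DHR39.

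**Figure D3:**
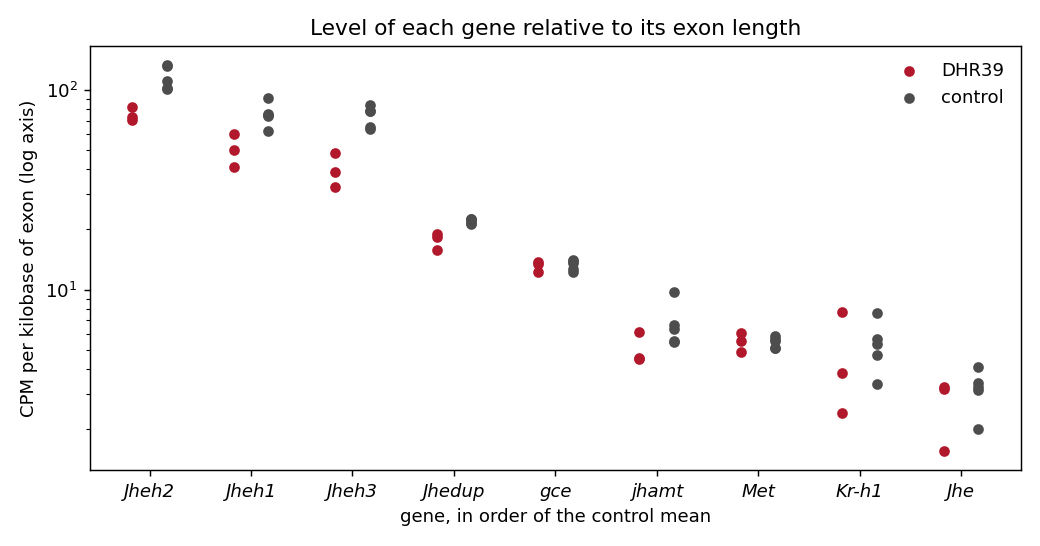
Level of each gene in CPM per kilobase of exon (vertical log axis), in the order of the control mean, with DHR39 libraries to the left of control libraries for each gene. The 3 hydrolase genes stand above the rest in both groups, between 32.4 and 81.8 in DHR39 and between 61.9 and 132.6 in controls. All exonic bases of a gene were used, including those that Kr-h1 shares with CG45075.

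Other genes of the pathway were grouped by role. Of 5 tested genes that make the precursor of the hormone, 0 rose and 0 fell by edgeR, with 0 at an unadjusted p under 0.05 (median log2 fold change -0.06). DESeq2 and limma voom also called 0. Hmgs, which encodes a synthase of the mevalonate pathway, was at 219 ± 25.1 CPM in DHR39 and 187 ± 24.1 CPM in controls (SD, n = 3 and n = 5), with a log2 fold change of 0.22 ± 0.12 that did not pass (edgeR adjusted p = 0.243), though it did with totals alone (0.0366). Fpps, the farnesyl diphosphate synthase, lay between 46.7 and 56.2 CPM in DHR39 and between 47.3 and 65.3 CPM in controls. Its log2 fold change was -0.14 ± 0.11 and did not pass (edgeR adjusted p = 0.478), coming to 0.0029 with totals alone.

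Peptides of the allatostatin families and their receptors, several of which act on the corpus allatum in other insects such as moths and cockroaches, gave 1 fall and 0 rises by edgeR among 6 tested genes (median -0.14), with 1 rise, of the receptor gene AstC-R1, at an unadjusted p under 0.05. DESeq2 and limma voom also gave 1 fall and 0 rises, whereas there was 1 fall and 1 rise with totals alone or with the 50 most abundant genes left out of the totals. For comparison, 10.7% of all tested genes fell and 6.58% rose by edgeR. AstC, the gene of allatostatin C, which inhibits juvenile hormone synthesis in moths, was at 23.0, 20.7 and 19.9 CPM in DHR39, against 31.0, 30.2, 40.1, 37.8 and 28.8 CPM in controls. No DHR39 library reached the lowest control. AstC fell by 0.66 ± 0.13 (edgeR adjusted p = 0.0035) and held its call under all 15 alternatives, with adjusted p up to 0.0247. It lies on 2L, 10.156 Mb from Hr39. AstA was at -0.18 ± 0.11 and AstA-R2 at -0.11 ± 0.14 (edgeR adjusted p = 0.331 and 0.698), the second turning to 0.04 with totals alone.

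Among 13 tested partners of the receptors and genes of the response, 2 rose and 0 fell (median 0.12), where 6.58% of all tested genes rose and 10.7% fell. There were 5 higher under totals alone, 4 when those totals leave out the 50 most abundant genes and 5 with the replicate block. Genes as a whole also moved up with totals alone, where 1992 were higher, against 889 with TMM. None of the 13 was lower at an unadjusted p under 0.05, and DESeq2 and limma voom each called 3 higher and 0 lower. The 2 rises by edgeR were 1 without DHR39 replicate 2, DHR39 replicate 3 or control replicate 1, and 3 without DHR39 replicate 1 or control replicate 2. FK506-bp1, an immunophilin that was found with Chd64 on a hormone response element in fly cells, was at 46.7, 45.7 and 45.1 CPM in DHR39, against 35.2, 38.3, 33.2, 34.6 and 35.9 CPM in controls. It rose by 0.37 ± 0.08 (edgeR adjusted p = 0.00843). Every DHR39 library was above every control, as for 9.74% of tested genes.

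JhI-1, named as a hormone-inducible gene and encoding a tRNA-processing nuclease, was at 18.6, 21.1 and 23.7 CPM in DHR39, against 12.8, 17.8, 11.8, 15.7 and 15.4 CPM in controls, again without overlap. JhI-1 rose by 0.52 ± 0.14 (edgeR adjusted p = 0.0227), a call that ended without DHR39 replicate 2 (0.0674), DHR39 replicate 3 (0.119) or control replicate 1 (0.0502), in a range of 0.00488 to 0.119. Chd64, the other protein of that element, had a log2 fold change of 0.26 ± 0.08 that narrowly missed the threshold (edgeR adjusted p = 0.0557, against 0.0417 with the replicate block and 0.00581 with totals alone), and its groups did not overlap. Chd64 passed under 6 of the 15 alternatives and missed under 9. DESeq2 (adjusted p = 0.0223) and limma voom (adjusted p = 0.0496) were among the 6. Hsp83, the chaperone that helps carry Met into the nucleus, was at 0.48 ± 0.35 (edgeR adjusted p = 0.428, and 0.00664 with the replicate block), and spread from 1502 to 4324 CPM in DHR39 and from 1066 to 3321 CPM in controls.

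The takeout family of secreted proteins resembles the juvenile hormone binding protein of moth blood. Of the 22 listed genes 21 were found by name, and 12 of these bear the symbol Jhbp in release 115. The symbol of CG10264, which was not found, was not looked up. Of 20 tested genes 5 fell, 1 rose and 14 did not pass (median -0.19), where 10.7% of all tested genes fell and 6.58% rose. With totals alone 2 fell and 1 rose, and 3 fell and 1 rose when the 50 most abundant genes were left out of the totals. By DESeq2 7 fell and 1 rose, and by limma voom 6 fell and 1 rose. The 5 falls were 3 without DHR39 replicate 2 or DHR39 replicate 3, and the rise was lost without DHR39 replicate 1. CG33306 was at 29.3, 29.9 and 33.9 CPM in DHR39, against 54.1, 45.0, 59.3, 50.4 and 47.9 CPM in controls, and fell by 0.73 ± 0.11 (edgeR adjusted p = 0.000635).

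CG34316 was low in both groups, at 1.28 ± 0.276 CPM in DHR39 and 3.80 ± 0.848 CPM in controls, and fell by 1.56 ± 0.26 (edgeR adjusted p = 0.00147). CG11852 (Jhbp7) fell by 0.42 ± 0.10 (edgeR adjusted p = 0.0135, but 0.0512 with the replicate block, 0.0752 with totals alone and 0.0847 without DHR39 replicate 3). CG14457 (Jhbp6) rose by 0.81 ± 0.20 (edgeR adjusted p = 0.0146, and 0.0626 without DHR39 replicate 1). The other 2 falls, named after their values were seen, were of takeout itself (to, -0.35 ± 0.10, edgeR adjusted p = 0.0254) and CG1124 (-0.40 ± 0.11, 0.0338). Not passing were the abundant genes CG10407 (Jhbp5), at -0.36 ± 0.12 (edgeR adjusted p = 0.0613, and 0.0349 with the replicate block), and CG5945 (Jhbp13), at -0.12 ± 0.15 (0.686), which turned to 0.03 with totals alone.

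**Figure D4:**
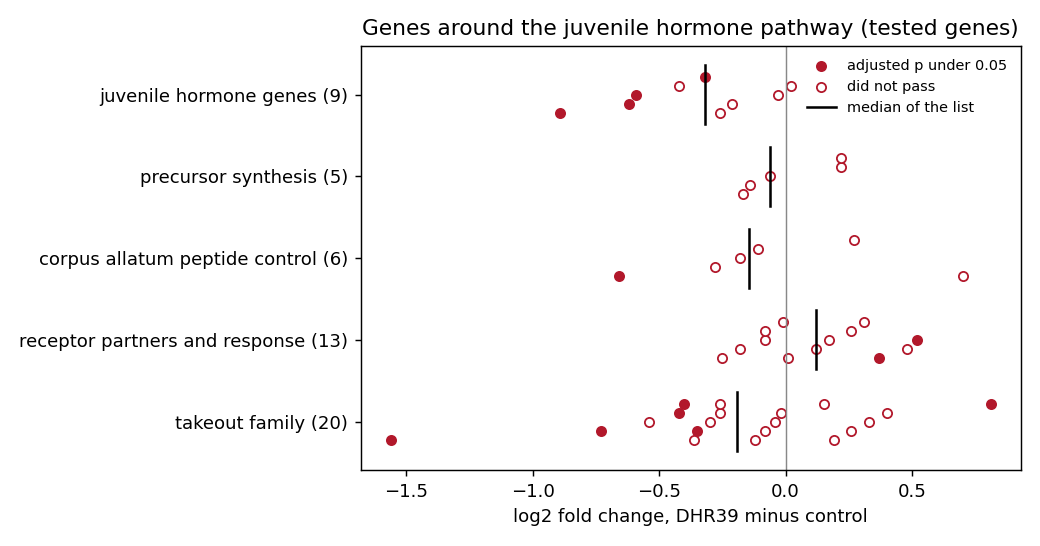
Log2 fold change, DHR39 minus control (horizontal axis), of each tested gene of the juvenile hormone set and of 4 lists of related genes, with the number tested in brackets. Filled points had an adjusted p under 0.05 and the black line is the median of the list. The 9 juvenile hormone genes have their median at -0.32, and the list of receptor partners and response genes has its median at 0.12, right of 0.

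The tested genes most like each gene that fell were sought by Pearson correlation of log2 CPM over the 8 libraries, among 11911 genes whose average log2 CPM was 1 or more. These values describe the 8 libraries, which the genes share along with the difference between the groups, and carry no test. For Jheh2 these were Nipsnap, Mitofilin and Galt, with r of 0.994, 0.991 and 0.987. Jheh3 was followed most closely by Jon65Aiv, Rpt1 and CG14277 (r of 0.985, 0.984 and 0.981). Jheh1 was nearest to Ing5, CR43640 and CG3164 (0.988, 0.973 and 0.965). Closest to Jhedup were CG9458, CG9297 and CR43418 (0.997, 0.986 and 0.985). No other gene of the juvenile hormone set was among these.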

How the data were processed

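Per the labels' protocols, the libraries were stranded, paired-end and made from poly(A) RNA. Tools named in the submitters' processing notes are STAR 2.6.1b, cutadapt 1.16, featureCounts 1.6.3 and DESeq2 (1.20.0 and 1.22.2), and the builds named are BDGP6 and dm6. Raw counts per gene, as deposited, were the starting point. The authors' deposited sample sheet holds replicate names and size factors (0.974 to 1.22), each the ratio used to scale a library. The authors' deposited comparison tables hold a mean scaled signal, a log2 fold change and a p-value per gene, from a fit that covered more lines than the 2 groups used here.

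Of 14865 genes, filterByExpr at its defaults left 13506. Scaling was by TMM and the contrast was DHR39 against control in edgeR 4.0.16 (R 4.3.3; quasi-likelihood, steps tested on simulated data). SE is the size of a log2 fold change divided by the square root of F. Positions and exon lengths came from Ensembl release 115 on BDGP6, newer than the release 94 that the deposited annotation is named for. Alternatives were other scalings, no filter, DESeq2 1.42.0, limma 3.58.1 voom, leaving out each library, and replicate names as a block. Those names join each DHR39 library to 1 control, and deviations from group means correlated across genes at 0.215, 0.108 and 0.183 in these pairs, each above 0.1, so they were taken to pair libraries. The main fit left this pairing out, and among the fits only the block alternative used it. Control replicates 1 and 2 are each alone in their block, so they add nothing to the contrast there. Between libraries without a shared name the correlation ran from -0.199 to 0.101, the highest for DHR39 replicate 1 and control replicate 2. That value was above 0.1 as well, so the cut-off alone does not single out the named pairs.

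The 9 genes and the lists were chosen with earlier results of these data known. Named beyond the 9 were, per list, up to 4 called genes of smallest p and up to 2 uncalled of highest level, with the 3 most like genes per called gene. Ratios between related genes and the flanking genes were added after seeing the data. Of the listed genes, CG33671, CG10264, Cp36, Cp38 and Vm26Aa were not analysed here, and CG33680 and Fbp1 did not pass the filter. A further gene of precursor synthesis is not reported here.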

Additional observations from a re-analysis of the deposited data

Results flagged for a closer look

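Among the controls, 1 library stood apart from the other 4 for 1 of 34 genes examined, by a rule that chance meets in about 1 group in 20. For jhamt, control replicate 1 was at 10.4 CPM, against 5.89 to 7.11 CPM in the other controls.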

How the results depend on the processing

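Under the 15 alternatives the number of the 9 genes called stayed at 3 or 4, all lower in DHR39, except when a library was left out, where it ran from 2 (without DHR39 replicate 3) to 4. It was 4 with the replicate block, 4 with DESeq2 and 3 with library totals alone. Of 135 values for these genes, 118 kept direction and call, 8 lost the call and 9 changed sign, each of the 9 in a gene that did not pass. Met was at -0.009 with the replicate block and from -0.06 to -0.0039 without DHR39 replicate 2 or control replicates 2 or 3, and gce at 0.12 with totals alone, 0.07 with the 50 most abundant genes left out of them and 0.02 without DHR39 replicate 3. Leaving out a library gave Kr-h1 from -0.78 to 0.10 (without DHR39 replicate 3 and 1) and Jhe from -0.44 to 0.02 (without DHR39 replicate 3 and 2). Among other genes, signs changed for Fpps (0.0029 with totals alone), AstA-R2 (0.04 with totals alone), CG5945 (0.03 with totals alone, 0.0026 with the block, and from -0.30 to 0.0030 without a library, the highest without DHR39 replicate 2) and Yp3 (0.09 with totals alone, 0.04 with totals without the 50 most abundant, 0.12 with the block, and from -0.16 to 0.04 without a library). Over all genes 889 were higher and 1444 lower, against 1992 and 1040 with totals alone and, leaving out the 50 most abundant from them, 1479 and 1132. The causes were not tested. Of the 9 genes, jhamt and Jhe have the fewest counts, 83 to 180 and 69 to 144 per library, and Kr-h1 has the largest SE, 0.33.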

Other observations

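The authors' deposited tables hold a second comparison, of a line named E7818.37 with w1118, in the sheet named for DHR393.48: its calls match 506 of 506 entries of the deposited set column for E7818.37. Both comparisons share control libraries, so their values are set side by side only. In the authors' deposited table for DHR39, Jheh3 was at a log2 fold change of -0.83, Jheh2 at -0.59, Jheh1 at -0.55 and Jhedup at -0.31, all in the set of genes lower in that line. In the authors' deposited table for E7818.37 the same genes were at 0.21, 0.10, -0.13 and -0.18, and none of the 9 genes was in a set for that line. For jhamt the authors' deposited tables give -0.34 in DHR39 and 0.33 in E7818.37, and for Kr-h1 -0.14 and 0.16, with adjusted p of 0.317 and 0.492 for jhamt and 0.810 and 0.861 for Kr-h1. A difference between the lines was not tested.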
